A study of Mus musculus with 42 samples.

Results

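Genes for proteins that the mouse oocyte secretes or builds into its coat, 9 in all, were followed through 42 arrays of preimplantation embryos: the growth factors Gdf9 and Bmp15, the oocyte secreted proteins Oosp1 and Oosp2, the oocyte maturation genes Omt2a and Omt2b, and the zona pellucida glycoproteins Zp1, Zp2 and Zp3. They were chosen by gene symbol, and all 9 are annotated on the array, with 12 of its 45101 probe sets, and stand among 18193 named genes. All 9 passed the filter on low values and were among the 15502 genes tested. All embryos were of the strain B6D2F1. Fertilized 1-cell embryos received a morpholino, which is an antisense oligomer that blocks translation or splicing, against Oct4 (gene symbol Pou5f1), Sall4 or Nanog, or a control morpholino that matches no mouse sequence. They were collected 44 h or 20 h after injection. At 44 h there were Oct4 morpholino and Sall4 morpholino embryos with control morpholino and uninjected embryos made for both, and Nanog morpholino embryos with their own control morpholino and uninjected embryos. At 20 h the Nanog experiment had the same 3 groups, while Oct4 morpholino and Sall4 morpholino embryos each had only uninjected embryos of their own experiment beside them. This makes 14 groups of 3 arrays, numbered as biological replicates in the labels, which do not say how many embryos were pooled or whether the embryos had separate parents, so p-values measure the spread between arrays.

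Oocytes store mRNAs of this kind while they grow in the ovary, and in the mouse much of the stored maternal mRNA is degraded after fertilization as the embryo's own genome becomes active. GDF9 and BMP15 are growth factors of the TGF-beta family by which the oocyte acts on the granulosa cells around it. ZP1, ZP2 and ZP3 form the zona pellucida, the coat that sperm bind and that surrounds the embryo until it hatches. Figla, a basic helix-loop-helix factor that acts through E-boxes, is needed in mouse oocytes for expression of the zona genes, and Nobox is a homeobox factor of the oocyte known to act on Gdf9 and other oocyte genes.

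Promoter sequences are shown for the 2 pairs of neighbouring genes, which carry most of the calls at 44 h, and for Zp3 as the only zona gene with a promoter in the table used. Oosp1 and Oosp2 lie next to each other with 0 annotated genes between them in the RefSeq gene table, and so do Omt2a and Omt2b. The sequences are RefSeq's for build GRCm38.p6, the 250 bases before each gene's start, 5′ to 3′ on the gene's strand. Capitals mark E-boxes (CANNTG, which reads alike on both strands) and TAATTG, a Nobox element (searched on both strands). The 2 motifs did not overlap, and no other form of a Nobox element was searched. The stretches are chr9:78314049-78314298 on the minus strand for Omt2a and chr9:78327780-78328029 on the plus strand for Omt2b. Those of the other pair are chr19:11691052-11691301 for Oosp1 and chr19:11660560-11660809 for Oosp2, both on the minus strand, and that of Zp3 is chr5:135979855-135980104 on the plus strand.
Omt2a: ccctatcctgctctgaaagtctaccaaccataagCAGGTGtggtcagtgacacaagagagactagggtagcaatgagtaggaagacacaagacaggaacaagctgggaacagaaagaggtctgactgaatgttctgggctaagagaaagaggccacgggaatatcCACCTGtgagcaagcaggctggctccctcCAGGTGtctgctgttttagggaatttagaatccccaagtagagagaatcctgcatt
Omt2b: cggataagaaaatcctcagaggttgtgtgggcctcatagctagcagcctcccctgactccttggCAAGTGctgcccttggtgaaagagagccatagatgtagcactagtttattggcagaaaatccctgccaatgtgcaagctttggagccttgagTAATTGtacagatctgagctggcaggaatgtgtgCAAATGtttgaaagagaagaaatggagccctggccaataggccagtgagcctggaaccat
Oosp1: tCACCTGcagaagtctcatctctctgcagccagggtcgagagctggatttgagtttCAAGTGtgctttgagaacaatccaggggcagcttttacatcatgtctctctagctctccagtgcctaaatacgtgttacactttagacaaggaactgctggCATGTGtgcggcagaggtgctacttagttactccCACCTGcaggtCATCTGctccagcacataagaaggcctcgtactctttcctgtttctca
Oosp2: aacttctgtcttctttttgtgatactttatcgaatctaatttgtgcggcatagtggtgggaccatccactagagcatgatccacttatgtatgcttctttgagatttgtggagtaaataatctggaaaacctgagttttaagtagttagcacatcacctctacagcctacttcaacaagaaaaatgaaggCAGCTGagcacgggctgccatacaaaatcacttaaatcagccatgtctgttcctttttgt
Zp3: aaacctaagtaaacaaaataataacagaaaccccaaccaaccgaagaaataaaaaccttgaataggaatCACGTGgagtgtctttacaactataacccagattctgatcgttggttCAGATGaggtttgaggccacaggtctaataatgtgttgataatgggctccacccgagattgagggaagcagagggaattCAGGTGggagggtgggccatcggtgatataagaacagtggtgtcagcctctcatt
RefSeq's table held promoters for 6 of the 9 members, the sixth being Bmp15, and Gdf9, Zp1 and Zp2 were not matched. All 6 hold at least 1 E-box, from 1 in Bmp15 and Oosp2 to 5 in Oosp1, and 66.2% of 32851 mouse promoters of the same length do so too. The form CACGTG, which is a special case of CANNTG, occurs only in Zp3 among the 6, starting 181 bases before the gene's start, and in 6.02% of all promoters. TAATTG occurs only in Omt2b among the 6, starting 94 bases before its start, and in 7.17% of all promoters. These are matches of letters, not measured binding sites.

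The deposited values are intensities in arbitrary units, 1 per probe set and array, on a linear scale. These are bulk samples, in which fewer cells of a type and less RNA per cell cannot be told apart. The 18 arrays of the Nanog experiment had medians of 193 to 227 and the 24 of the Oct4 and Sall4 experiments 26.1 to 33.3, so levels are set side by side only within one of these array sets. Each gene was read from its probe set with the highest mean, and differences are given as log2(intensity + 16), a scale that understates changes of dim genes. They were tested with limma in 1 fit of all 42 arrays, and passed at an adjusted p under 0.05 (Benjamini-Hochberg over 15502 genes). Of 11 genes of the preimplantation embryo, Pou5f1, Sall4, Dppa3 and Fgf4 were above the array median on every array. Usp17la, Tead4 and Gata6 were below it on 1 or 2 arrays, Tdgf1 on 11, Nanog on 14, Cdx2 on 15 and Cldn4 on 25. Of 17 granulosa and cumulus cell genes, Fshr, Inha, Has2 and Fst were below the median on all 42 arrays and 9 others on 12 to 41. Amhr2 and Star were below it on 0 arrays, Bmpr1b on 3 and Kitl on 5, so the list does not go one way. Of the targeted genes, at 44 h Pou5f1 averaged 2218 ± 259.9 in Oct4 morpholino embryos and 3925 ± 456 in control morpholino embryos (SD, n = 3 each; log2 difference -0.82, adjusted p = 0.00331). Pou5f1 was also lower than in control morpholino embryos in Sall4 morpholino (-0.88, adjusted p = 0.00452) and Nanog morpholino embryos (-0.70, adjusted p = 0.0235). Sall4 averaged 3662 ± 462 in Sall4 morpholino embryos and 3169 ± 385 in control morpholino embryos, and Nanog 2687 ± 1129 in Nanog morpholino embryos and 3828 ± 110.2 in control morpholino embryos, neither of which passed; a morpholino need not lower the amount of its target mRNA.

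**Figure D1:**
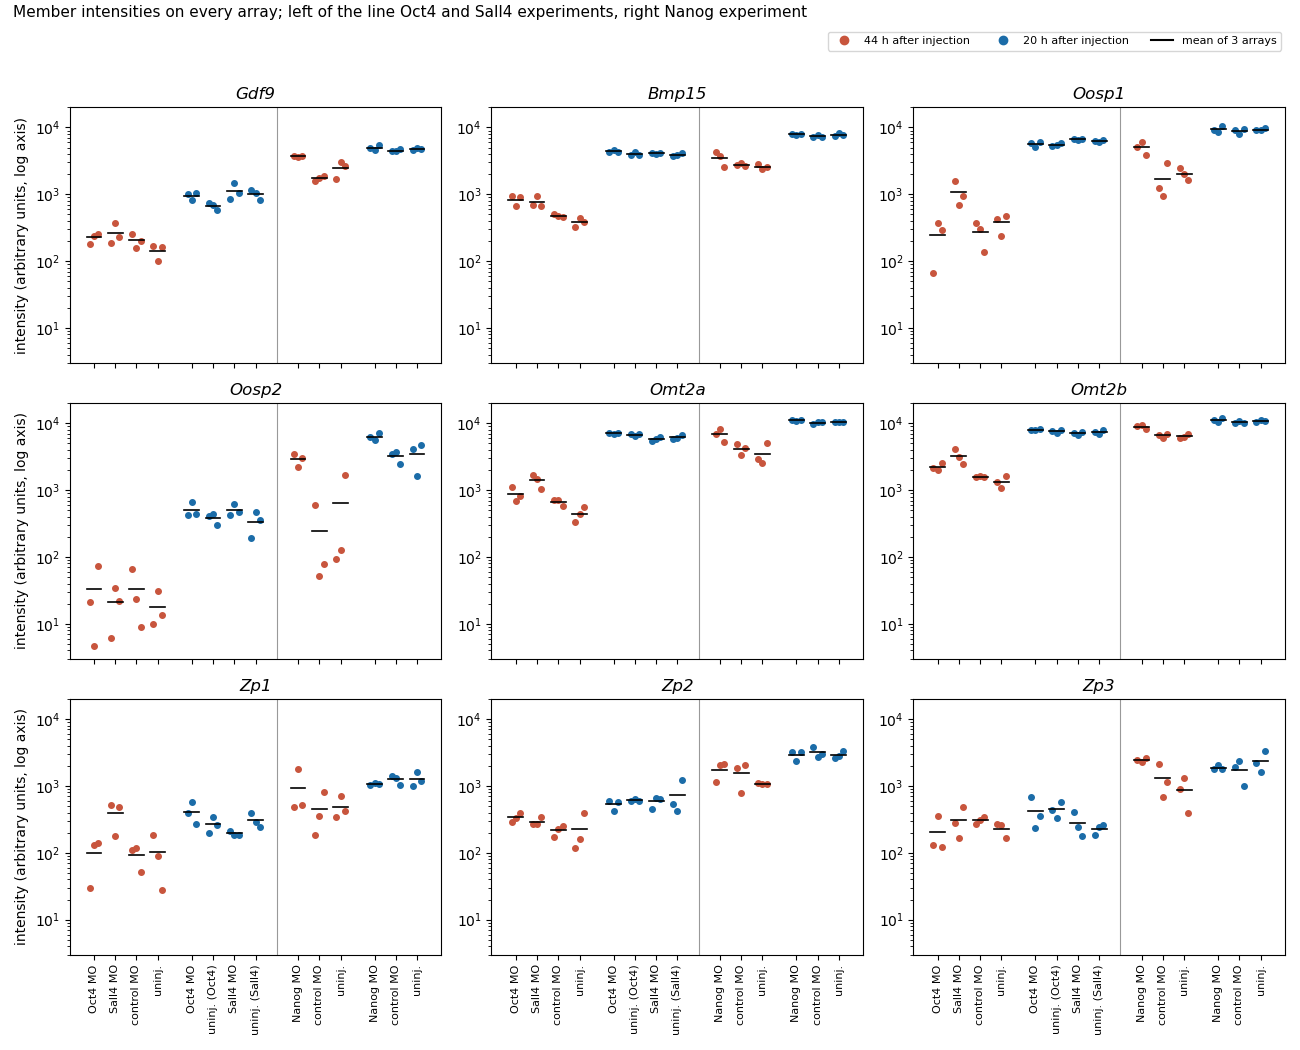
Intensity of the 9 genes (log axis, arbitrary units) on each of the 42 arrays, as points, with the mean of 3 arrays as a line; red is 44 h, blue is 20 h, and the grey line parts the Oct4 and Sall4 experiments (left) from the Nanog experiment (right). For Gdf9, Bmp15, Oosp1, Omt2a, Omt2b and Zp2 all 44 h arrays lie below all 20 h arrays of their set, while the points of Zp1 and Zp3 mix.

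For 6 members (Gdf9, Bmp15, Oosp1, Omt2a, Omt2b and Zp2) every 44 h array was below every 20 h array within each array set, whatever had been injected. Oosp2 did so in the Oct4 and Sall4 experiments but not in the Nanog experiment, and Zp1 and Zp3 in neither. In the Nanog experiment the highest 44 h mean of each of the 9 members was that of the Nanog morpholino embryos. In the other set the highest 44 h mean was that of Sall4 morpholino embryos for Gdf9, Oosp1, Omt2a, Omt2b, Zp1 and Zp3, and that of Oct4 morpholino embryos for Bmp15, Oosp2 and Zp2. Ordered by mean, neighbouring groups mostly overlapped: of the 5 neighbouring pairs in the Nanog experiment the arrays were apart in 3 for Omt2a, in 2 for Gdf9, Oosp1, Oosp2 and Omt2b, in 1 for Bmp15 and Zp2 and in 0 for Zp1 and Zp3. Of the 7 neighbouring pairs in the Oct4 and Sall4 experiments they were apart in 4 for Bmp15 and Oosp1, in 3 for Omt2a, in 2 for Gdf9 and Omt2b, in 1 for Oosp2 and Zp2 and in 0 for Zp1 and Zp3. The order within a time is therefore mostly not resolved by 3 arrays a group.

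Both growth factor mRNAs were lower at 44 h than at 20 h in uninjected embryos. In the Nanog experiment, Bmp15, whose protein acts with GDF9 on granulosa cells, read 2799.5, 2405 and 2571 at 44 h, against 7503, 8134 and 7842 at 20 h. All 44 h arrays stood at about the same level, 33.1% of the 20 h mean, and the log2 change was -1.59 ± 0.16 (SE, adjusted p = 1.27e-08). Gdf9 read 1718, 3068 and 2679 at 44 h, against 4618, 5014 and 4771 at 20 h. Its 44 h arrays were more spread and averaged 51.8% of the 20 h mean, and the log2 change was -0.98 ± 0.23 (SE, adjusted p = 0.00174). In the Oct4 and Sall4 experiments Bmp15 read 324, 449 and 380.2 in uninjected embryos at 44 h, against 3927, 4357 and 3834 at 20 h of the Oct4 experiment, a log2 change of -3.35 ± 0.16 (adjusted p = 1.31e-15). Gdf9 read 166, 102 and 163 there at 44 h, against 731, 693 and 585 at 20 h, a log2 change of -2.12 ± 0.23 (adjusted p = 1.05e-08). The arrays of the 2 times did not overlap for either gene, but outside the Nanog experiment the uninjected embryos of 44 h are labelled for the Oct4 and Sall4 experiments together and those of 20 h for 1 of them, and the labels do not say whether both times were run together.

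Within the Nanog experiment the 2 oocyte secreted proteins had the largest changes on the log2 scale among the members, in uninjected and in control morpholino embryos. Oosp1, a protein secreted by the mouse oocyte, read 2447, 2003 and 1653 in uninjected embryos of the Nanog experiment at 44 h, against 9074, 9199 and 9668 at 20 h (log2 change -2.20 ± 0.40, adjusted p = 0.000104). Oosp2, its neighbour in the genome and a gene of the same family, read 94.2, 128 and 1708 at 44 h, against 4155, 1648 and 4661 at 20 h. Replicate 3 at 44 h stood above replicate 2 at 20 h, so the groups overlapped, while the other 44 h arrays were below their array medians; the log2 change was -3.40 ± 0.72 (adjusted p = 0.000556). In control morpholino embryos of the same experiment Oosp2 read 600.0, 51.5 and 78.4 at 44 h, against 3533, 3734 and 2426 at 20 h, with no overlap (log2 change -4.34 ± 0.72, adjusted p = 3.33e-05). In uninjected embryos of the other experiments Oosp2 read 10.1, 30.7 and 13.5 at 44 h, against 405, 438 and 306 at 20 h of the Oct4 experiment, with 2 of the 3 44 h arrays below their medians. Its log2 change there, -3.58 ± 0.72 (adjusted p = 0.000154), ends near the floor of the arrays, and that of Oosp1 was -3.85 ± 0.40 (adjusted p = 4.65e-09). Of the 504 values of the 12 member probe sets 13 were below their array's median, 12 of Oosp2 and 1 of Zp1, and all 13 at 44 h.

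Omt2a and Omt2b, adjacent genes named for the maturing oocyte, were lower on every 44 h array than on any 20 h array of their set. Omt2a read 2886, 2526 and 5097 in uninjected embryos of the Nanog experiment at 44 h, against 10475, 10326 and 10599 at 20 h (log2 change -1.64 ± 0.22, adjusted p = 1.04e-06). Omt2b read 6082, 6206 and 6969 at 44 h, against 10573, 11163 and 10927 at 20 h, 59.0% of the 20 h mean (log2 change -0.76 ± 0.15, adjusted p = 0.00031). In Omt2a replicate 3 stood apart from the other 44 h arrays, while those of Omt2b were close together. In uninjected embryos of the other experiments Omt2a read 339, 445 and 558 at 44 h, against 6933, 6514 and 6944 at 20 h of the Oct4 experiment, 6.58% of the 20 h mean and a log2 change of -3.90 ± 0.22 (adjusted p = 1.17e-14). The log2 change of Omt2b there was -2.50 ± 0.15 (adjusted p = 8.93e-14). These changes stand on array sets of different scale, and the difference between the sets was not tested. A probe set annotated to both genes at once read 8976, 9382 and 9605 at 44 h, against 12545, 12192 and 13241 at 20 h in uninjected embryos of the Nanog experiment, a smaller log2 change of -0.44 (adjusted p = 0.0135 among 35399 probe sets tested as features of their own).

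Zona genes were less uniform. Zp2, whose protein is cleaved after fertilization, read 1105, 1057 and 1056 in uninjected embryos of the Nanog experiment at 44 h, against 2652, 2785 and 3350.0 at 20 h (log2 change -1.43 ± 0.35, adjusted p = 0.00247). Zp1, which cross-links the filaments of the coat, read 346, 698 and 420.2 at 44 h, against 1010.0, 1618 and 1188 at 20 h; the arrays did not overlap, but the log2 change of -1.39 ± 0.53 did not pass (adjusted p = 0.0527). Zp3 read 903, 1316 and 390.1 at 44 h, against 2171, 1604 and 3355 at 20 h (log2 change -1.53 ± 0.45, adjusted p = 0.0114). That call did not pass without uninjected replicate 3 at 44 h (adjusted p = 0.12) or at 20 h (0.0766). In control morpholino embryos Zp3 did not pass (log2 change -0.47 ± 0.45, adjusted p = 0.531), while Zp1 (-1.69 ± 0.53, adjusted p = 0.0191) and Zp2 (-1.12 ± 0.35, adjusted p = 0.018) did; the difference between those 2 groups of embryos was not tested. Zp1 did not pass there without control replicate 1 or 2 at 44 h (adjusted p = 0.151 and 0.0558) or replicate 1 at 20 h (0.0608), nor Zp2 without replicate 2 at 44 h (0.195) or replicate 1 at 20 h (0.0799). In uninjected embryos of the other experiments Zp3 had log2 changes of -0.92 ± 0.45 and -0.00 ± 0.45 against the 2 sets of 20 h embryos, neither of which passed (adjusted p = 0.111 and 1).

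**Figure D2:**
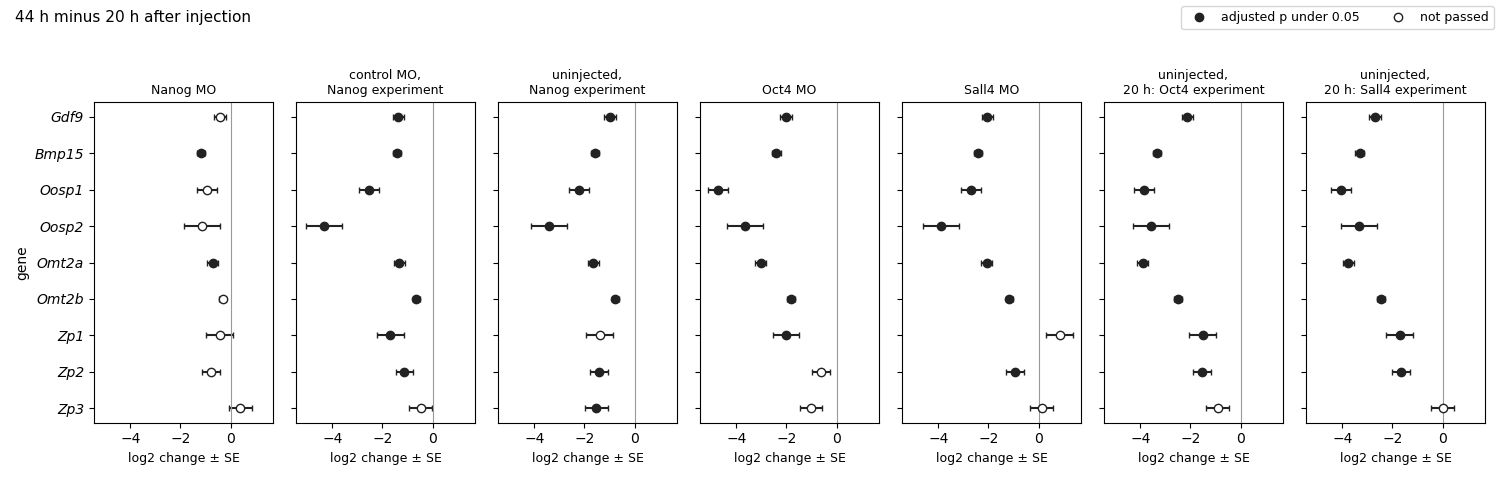
Log2 change of each member from 20 h to 44 h (44 h minus 20 h, points, with SE as bars) in the 7 sets of embryos; filled points passed at an adjusted p under 0.05. Nearly all points lie left of 0, those of the Nanog morpholino embryos nearer to 0 than those of their control morpholino embryos, and Zp1 and Zp3 lie on either side of it.

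Counted over the 9 members, 8 passed at 44 h against 20 h, all as lower, in uninjected embryos of the Nanog experiment, where 16.4% of all tested genes passed as lower. In its control morpholino embryos 8 fell as well (16.3% of all genes). The median log2 change of the members was -1.53 in uninjected embryos, beside 0.02 over all genes, and -1.37 in control morpholino embryos, beside -0.09. In uninjected embryos of the other experiments 8 fell against 20 h of the Oct4 experiment (23.3% of all genes, member median -2.50 beside -0.10) and 8 against 20 h of the Sall4 experiment (21.9%, member median -2.70 beside -0.02). In these comparisons of the other experiments Zp1 depended on single arrays: without uninjected replicate 3 at 44 h its adjusted p was 0.208 against the Oct4 experiment and 0.116 against the Sall4 experiment, and without replicate 2 or 3 at 20 h of the Oct4 experiment it was 0.0872 and 0.0523. From the arrays of the compared groups alone, Zp3 (adjusted p = 0.0944) and Oosp2 (0.0911) did not pass in uninjected embryos of the Nanog experiment, nor Zp1 (0.0799) and Zp2 (0.111) in its control morpholino embryos. In the other uninjected embryos Zp1 did not pass against either set of 20 h arrays in that fit (0.0626 and 0.0605), nor Zp2 against that of the Sall4 experiment (0.0659).

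Morpholino embryos showed the same direction for most members. In Oct4 morpholino embryos 7 fell (21.7% of all genes), all but Zp2 and Zp3, with a member median of -2.02 beside -0.05 over all genes. In Sall4 morpholino embryos 7 fell too (21.6% of all genes), all but Zp1 and Zp3, with a median of -2.04 beside -0.05. Zp1 read 522, 179 and 489.6 there at 44 h, against 215, 187 and 184 at 20 h, and 2 of the 44 h arrays were above all 20 h arrays (log2 change 0.83 ± 0.53, adjusted p = 0.242). Zp2 passed in Sall4 morpholino embryos (-0.95 ± 0.35, adjusted p = 0.0337) but not without replicate 1 or 2 at 44 h (0.0877 and 0.0836) or replicate 2 or 3 at 20 h (0.105 and 0.0986), nor after quantile normalization (0.0588). In Nanog morpholino embryos only Bmp15 (-1.18 ± 0.16, adjusted p = 4.02e-06) and Omt2a (-0.71 ± 0.22, adjusted p = 0.0195) passed, 2 of 9 as lower beside 11.9% of all genes, with a median of -0.71 beside -0.01. Omt2a did not pass without Nanog morpholino replicate 3 at 44 h (adjusted p = 0.136) or at 20 h (0.0557), after quantile normalization (0.0526) or from these arrays alone (0.109), which leaves 1 member. Whether these changes differ from those of control embryos was tested separately and is given further on.

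At 20 h no member passed between injected embryos and their controls. The count was 0 of 9 by limma in Oct4 morpholino against uninjected embryos (2.01% of all genes passed; 1 member, Gdf9, at an unadjusted p under 0.05), and in Sall4 morpholino against uninjected embryos (0.239%; 0 members at an unadjusted p under 0.05). It was 0 of 9 too in Nanog morpholino embryos against control morpholino (0.619%) and against uninjected embryos (0.445%), with 0 members at an unadjusted p under 0.05 in both. Gdf9 read 994, 835 and 1036 in Oct4 morpholino embryos, against 731, 693 and 585 in uninjected embryos, higher on every array but short of the threshold (log2 difference 0.50 ± 0.23, adjusted p = 0.421). Oosp2 read 6338, 5603 and 7060.4 in Nanog morpholino embryos, against 3533, 3734 and 2426 in control morpholino embryos. Its arrays did not overlap with either control at 20 h, and its log2 difference was 0.99 ± 0.72 against each (adjusted p = 0.931 and 0.851). That SE is the spread of Oosp2 over all 14 groups, not that of the 20 h arrays alone. It takes in widely spread 44 h arrays, such as 51.5 to 600.0 in control morpholino embryos of the Nanog experiment. The lack of a call therefore does not show that Oosp2 was unchanged at 20 h. The remaining log2 differences at 20 h ran from -0.60 for Zp1 to 0.63 for Oosp2, both in Sall4 morpholino embryos.

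Between control morpholino and uninjected embryos no member passed either. By limma the count was 0 of 9 for the Oct4 and Sall4 experiments at 44 h (0.103% of all genes; 2 members, Gdf9 and Omt2a, at an unadjusted p under 0.05), and 0 of 9 for 44 h and for 20 h in the Nanog experiment (0.445% and 0.0903% of all genes; 0 members at an unadjusted p under 0.05 in both). Omt2a read 712, 705 and 583 in control morpholino embryos, against 339, 445 and 558 in uninjected embryos of the Oct4 and Sall4 experiment at 44 h, without overlap (log2 difference 0.58 ± 0.22, adjusted p = 0.681). Bmp15 did not overlap there either, at 453 to 513 in control morpholino and 324 to 449 in uninjected embryos. In that comparison 8 of the 9 differences were above 0 and 1 below, with a member median of 0.32 beside 0.00 over all genes. In the Nanog experiment 5 of 9 were above 0 at 44 h and 3 of 9 at 20 h.

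At 44 h some members were higher in Oct4, Sall4 or Nanog morpholino embryos than in control morpholino embryos, and none passed as lower. The calls rest on the spread shared by all 42 arrays: when the arrays of the compared groups alone were fitted, 0 of 9 members passed in any of the 44 h comparisons of injected embryos that follow, or in the tests of the change over time further on. At an unadjusted p under 0.05 that smaller limma fit left 3 members for Oct4, 5 for Sall4 and 6 for Nanog morpholino against control morpholino embryos, and 3, 5 and 5 against uninjected embryos. The summed intensity of 11 genes of the preimplantation embryo (Pou5f1, Sall4, Nanog, Dppa3, Cdx2 and others), each morpholino's own target included, moved in the opposite direction. It was 17157 to 20300.5 in Oct4 morpholino and 16287 to 21737 in Sall4 morpholino embryos, against 20609.5 to 24500.4 in their control morpholino embryos. The Sall4 range overlapped with that of the control arrays. The sum was 37509.7 to 43884 in Nanog morpholino embryos, against 48547 to 50688 in control morpholino embryos, and its part in the members' differences was not tested. It leans on bright genes: Dppa3, Pou5f1 and Sall4 had medians of 254, 80.3 and 52.5 times the array median. Of the 11 genes 3 passed as lower and 1 as higher in Oct4 morpholino embryos (6.23% and 5.26% of all genes). In Sall4 morpholino embryos 3 passed as lower (2.12%) and in Nanog morpholino embryos 1 (1.52%).

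**Figure D3:**
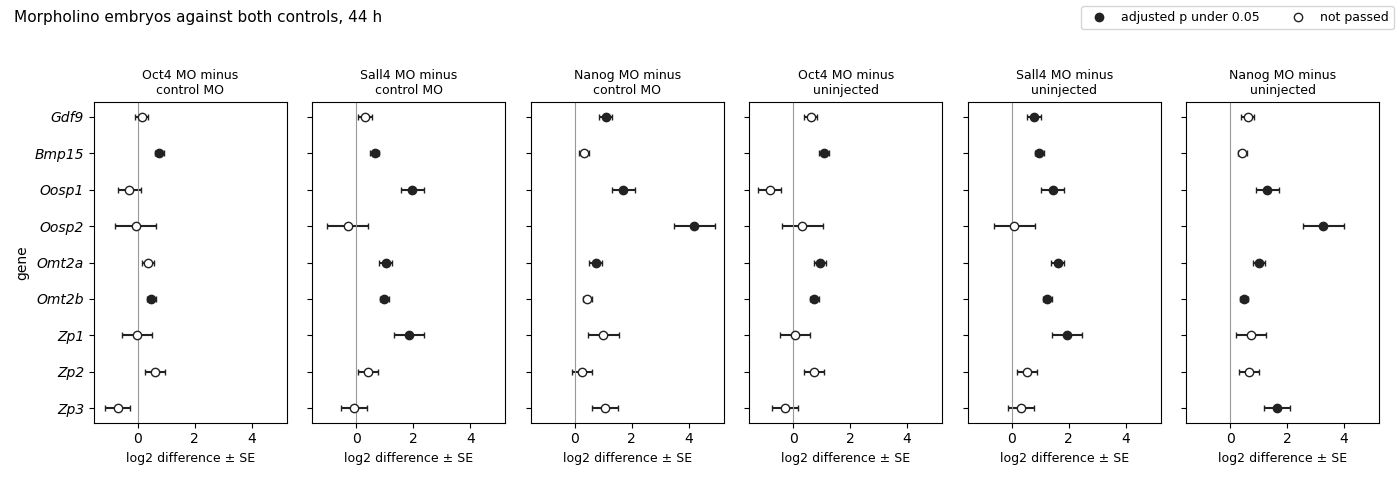
Log2 difference of each member at 44 h (points, with SE as bars) between Oct4, Sall4 or Nanog morpholino embryos and control morpholino embryos (left 3 panels) or uninjected embryos (right 3 panels); filled points passed at an adjusted p under 0.05 in the fit of all arrays. Every filled point lies right of 0, and Oosp2 in Nanog morpholino embryos lies farthest, at 4.20 and 3.26.

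In Oct4 morpholino embryos at 44 h, 2 of 9 members were higher than in control morpholino embryos, beside 5.26% of all genes. Bmp15 read 928, 661 and 898 in Oct4 morpholino embryos, against 513, 471 and 453 in control morpholino embryos, without overlap (log2 difference 0.76 ± 0.16, adjusted p = 0.00205). This call did not pass when the mean of all 3 Bmp15 probe sets was used (0.46, adjusted p = 0.199). Omt2b read 2172, 2012 and 2508 in Oct4 morpholino embryos, against 1571, 1630.2 and 1585 in control morpholino embryos (log2 difference 0.47 ± 0.15, adjusted p = 0.0407). It passed no longer without any 1 of the control arrays (adjusted p = 0.102, 0.0878 and 0.0989) or without Oct4 morpholino replicate 1 or 3 (0.0718 and 0.169), nor with a pseudocount of 1 (0.0504), median centring (0.0544) or every probe set as a feature (0.0592). Against uninjected embryos 3 of 9 were higher, beside 7.17% of all genes: Bmp15 (1.07 ± 0.16, adjusted p = 2.37e-05), Omt2a (0.94 ± 0.22, adjusted p = 0.00309) and Omt2b (0.74 ± 0.15, adjusted p = 0.00105). The member median was 0.14 against control morpholino and 0.61 against uninjected embryos, beside 0.02 over all genes in both. Oosp1 read 66.5, 375 and 291 in Oct4 morpholino embryos, against 367, 303 and 138 in control morpholino and 432, 237 and 478 in uninjected embryos, with overlap, and did not pass (-0.31 ± 0.40 and -0.83 ± 0.40).

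Sall4 morpholino embryos at 44 h had 5 of 9 members higher than control morpholino embryos, beside 1.8% of all genes, and the member median was 0.65 beside -0.02. Oosp1 read 1589.7, 695 and 955 in Sall4 morpholino embryos, against 367, 303 and 138 in control morpholino embryos, 4.01 times the control mean (log2 difference 1.96 ± 0.40, adjusted p = 0.00357). Omt2a read 1684, 1449.6 and 1049 in Sall4 morpholino embryos, against 712, 705 and 583 in control morpholino embryos (1.03 ± 0.22, adjusted p = 0.00517). Omt2b read 4125, 3106 and 2449 in Sall4 morpholino embryos, against 1571, 1630.2 and 1585 in control morpholino embryos (0.98 ± 0.15, adjusted p = 0.000289). For these 3 genes every Sall4 morpholino array was above every control array, and each call held when any single array of the 2 groups was left out. Bmp15 (0.65 ± 0.16, adjusted p = 0.0189) did not pass without control replicate 2 or 3 (0.0691 and 0.0808) or Sall4 morpholino replicate 2 (0.182). Zp1 read 522, 179 and 489.6 in Sall4 morpholino embryos, against 112, 117 and 51.4 in control morpholino embryos (1.85 ± 0.53, adjusted p = 0.043). It did not pass without any 1 of the control arrays (0.0709, 0.0757 and 0.206) or without Sall4 morpholino replicate 1 or 3 (0.147 and 0.123), nor with a pseudocount of 64 (0.0504) or every probe set as a feature (0.0556). The count was 3 without control replicate 2 or 3.

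Against uninjected embryos 6 members were higher in Sall4 morpholino embryos, beside 3.55% of all genes, with a median of 0.96 beside -0.02. The log2 differences were 1.61 ± 0.22 for Omt2a (adjusted p = 1.77e-05), 1.24 ± 0.15 for Omt2b (4.11e-06), 0.96 ± 0.16 for Bmp15 (0.000298) and 1.44 ± 0.40 for Oosp1 (0.0262). Those of Zp1 and Gdf9 were 1.94 ± 0.53 (0.0216) and 0.78 ± 0.23 (0.0366). Without uninjected replicate 2 the count was 3, since Gdf9, Oosp1 and Zp1 no longer passed (adjusted p = 0.212, 0.15 and 0.0507). Gdf9 also did not pass without Sall4 morpholino replicate 2 (0.299), with a pseudocount of 64 (0.0604) or with array weights (0.0519), and Oosp1 without replicate 1 (0.142). Zp1 did not pass without Sall4 morpholino replicate 1 or 3 (0.0929 and 0.0771) or uninjected replicate 3 (0.186). Summed over the 17 granulosa and cumulus cell genes on the array, intensity was 1805 to 2088 in Sall4 morpholino embryos, against 1154 to 1617 in control morpholino and 1371 to 2248 in uninjected embryos; its part in the result was not tested.

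Set against Sall4 morpholino embryos, Oct4 morpholino embryos had 3 members lower at 44 h, beside 3.44% of all genes, and a member median of -0.50 beside 0.03. Oosp1 had the largest of these differences, with 66.5, 375 and 291 in Oct4 morpholino embryos, against 1589.7, 695 and 955 in Sall4 morpholino embryos (-2.27 ± 0.40, adjusted p = 0.000466), and no overlap. Zp1 (-1.88 ± 0.53, adjusted p = 0.025) did not pass without Oct4 morpholino replicate 1 (0.183) or Sall4 morpholino replicate 1 or 3 (0.114 and 0.0982). Omt2b (-0.50 ± 0.15, adjusted p = 0.04) did not pass without Oct4 morpholino replicate 1 or 2 (0.097 and 0.144) or Sall4 morpholino replicate 1 or 2 (0.289 and 0.0814), nor with a pseudocount of 1 (0.0514) or every probe set as a feature (0.0582). The count was 1 without Sall4 morpholino replicate 1, and from the arrays of these groups alone it was 0 by limma, with 2 members at an unadjusted p under 0.05.

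Nanog morpholino embryos at 44 h had 4 of 9 members higher than control morpholino embryos, beside 3.51% of all genes, and all 9 differences were above 0, with a median of 1.00 beside 0.05 over all genes. Oosp2 stood out in size. It read 3467, 2230.2 and 3067 in Nanog morpholino embryos, against 600.0, 51.5 and 78.4 in control morpholino and 94.2, 128 and 1708 in uninjected embryos. Every Nanog morpholino array was above every array of both controls, where 4 of the 6 values were below the array median, so that no fold of means is given. The log2 difference was 4.20 ± 0.72 against control morpholino (adjusted p = 0.00048) and 3.26 ± 0.72 against uninjected embryos (adjusted p = 0.00394), and both calls held when any single array was left out. The granulosa and cumulus cell sum was 5307 to 5720 in Nanog morpholino embryos, against 3921 to 5661 in control morpholino and 3489 to 6014 in uninjected embryos, and of its 12 tested genes 1, Kitl, was higher in Nanog morpholino than in control morpholino embryos (1.94, adjusted p = 0.00212); its part in the result was not tested.

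Gdf9 read 3724, 3594 and 3803 in Nanog morpholino embryos, against 1569, 1771 and 1899 in control morpholino and 1718, 3068 and 2679 in uninjected embryos. The 3 Nanog morpholino arrays were close together and above both controls; the log2 difference was 1.08 ± 0.23 against control morpholino (adjusted p = 0.00466), and 0.61 ± 0.23 against uninjected embryos, which did not pass (adjusted p = 0.1). Oosp1 read 5189.9, 6061 and 3857 in Nanog morpholino embryos, against 1242, 937 and 2971 in control morpholino and 2447, 2003 and 1653 in uninjected embryos, without overlap. Its log2 difference of 1.70 ± 0.40 from control morpholino embryos (adjusted p = 0.0104) did not pass without control replicate 2 (0.103), which leaves 2 members. Against uninjected embryos the log2 difference of Oosp1 was 1.29 ± 0.40 (adjusted p = 0.0425), and it passed with 1 array left out only when that was Nanog morpholino replicate 3; without the others adjusted p was 0.0544 to 0.133, and with a pseudocount of 1 it was 0.0869. Omt2a read 7033, 8285 and 5293 in Nanog morpholino embryos, against 4823, 3309 and 4207 in control morpholino embryos (0.73 ± 0.22, adjusted p = 0.0464). It did not pass without control replicate 2 or 3 (0.244 and 0.0845) or Nanog morpholino replicate 1 or 2 (0.143 and 0.206). The Omt2a call also did not pass in 6 of 13 other settings, among them a pseudocount of 1 (0.0808), median centring (0.088), quantile normalization (0.069) and array weights (0.0822).

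Against uninjected embryos 5 members were higher in Nanog morpholino embryos, beside 5.03% of all genes, with a median of 0.71 beside -0.07. Beside Oosp1 and Oosp2 these were Omt2a (1.01 ± 0.22, adjusted p = 0.00334), Zp3 (1.64 ± 0.45, adjusted p = 0.0205) and Omt2b (0.48 ± 0.15, adjusted p = 0.0498). Zp3 read 2446, 2286 and 2659 in Nanog morpholino embryos, against 903, 1316 and 390.1 in uninjected embryos and 2124, 682 and 1141 in control morpholino embryos, and its difference from the control morpholino embryos did not pass (1.04 ± 0.45, adjusted p = 0.215). The Zp3 call did not pass without uninjected replicate 3 (0.149) or Nanog morpholino replicate 1 or 3 (0.057 and 0.0505), and that of Omt2b with any 1 array left out (0.0516 to 0.154). Omt2b also did not pass with a pseudocount of 1 (0.0977), no filter (0.0505), the filter on each set's own median (0.0526), array weights (0.0622) or every probe set as a feature (0.0575). The count was 2 without uninjected replicate 3 or Nanog morpholino replicate 1, and 3 without uninjected replicate 1 or 2 or Nanog morpholino replicate 2.

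A test of the change over time itself compares the fall in injected embryos with that in their controls. For Oct4 and Sall4 morpholino embryos these were uninjected embryos, since their experiments had no control morpholino group at 20 h. Injection itself and the morpholino's target therefore cannot be told apart in those tests. Bmp15 fell less in Oct4 morpholino than in uninjected embryos, by 0.95 ± 0.23 on the log2 scale (adjusted p = 0.012), and was the only member of 9 to pass, beside 3.6% of all genes. Of the 9 differences 5 were above 0 and 4 below, with a median of 0.11 beside 0.06 over all genes. In Sall4 morpholino embryos 3 members fell less than in uninjected embryos, beside 0.658% of all genes: Omt2a by 1.68 ± 0.31 (adjusted p = 0.00607), Omt2b by 1.30 ± 0.22 (adjusted p = 0.00283) and Bmp15 by 0.88 ± 0.23 (adjusted p = 0.0462). There 8 of the 9 differences were above 0 and 1 below, with a median of 0.88 beside -0.04. The largest, 2.54 for Zp1, did not pass. The Oct4 call of Bmp15 did not pass with the mean of its 3 probe sets (adjusted p = 0.35). Both Omt2 calls held when any single array was left out, while the Sall4 call of Bmp15 held in 3 of 12 such fits, with an adjusted p of up to 0.165, and in 4 of 12 other settings. It did not pass with median centring (0.0512), quantile normalization (0.0735), no filter (0.0501), the mean of all probe sets (0.0947), array weights (0.0729) or every probe set as a feature (0.0668). Without uninjected replicate 3 at 44 h the Oct4 count was 2. In Nanog morpholino against control morpholino embryos 0 of 9 passed by limma (0.819% of all genes; 3 members, Gdf9, Oosp1 and Oosp2, at an unadjusted p under 0.05), although all 9 differences were above 0, with a median of 0.86 beside 0.10. That of Oosp2 was 3.21 ± 1.02 (adjusted p = 0.152), and 1 member passed when control replicate 1 at 44 h was left out. The 2 tests against uninjected embryos share the 44 h uninjected arrays, and the labels do not say whether their 44 h and 20 h embryos were run together.

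**Figure D4:**
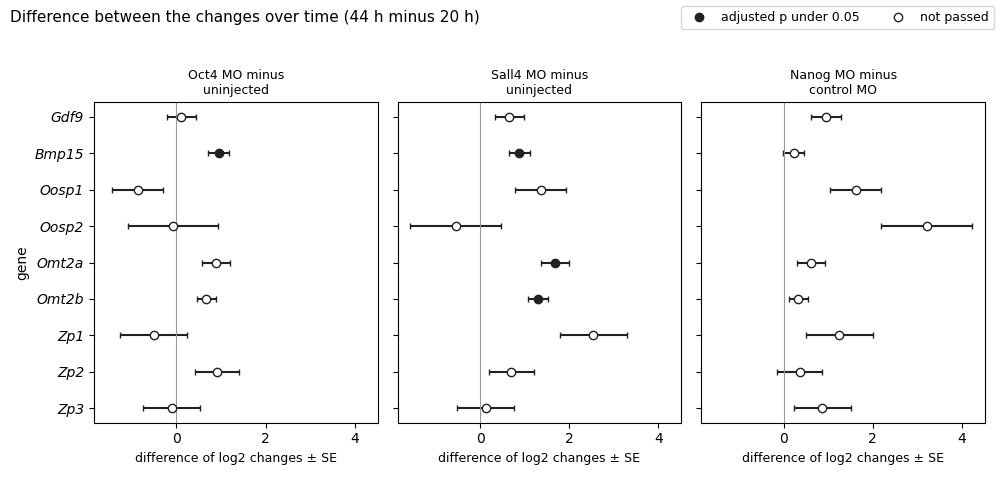
Difference between the log2 changes over time (44 h minus 20 h, points, with SE as bars) of Oct4, Sall4 and Nanog morpholino embryos and of their controls, for the 9 members; filled points passed at an adjusted p under 0.05. The filled points are Bmp15 (0.95) in the Oct4 panel and Bmp15 (0.88), Omt2a (1.68) and Omt2b (1.30) in the Sall4 panel, and all open points of the Nanog panel lie right of 0.

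The 3 probe sets of Bmp15 differed on the 44 h comparison that gave its call. In Oct4 morpholino against control morpholino embryos they gave log2 differences of 0.76, 0.82 and -0.19. The third probe set read 189, 223 and 179 in Oct4 morpholino embryos, against 282, 269 and 150.5 in control morpholino embryos, and overlapped. In Sall4 morpholino against control morpholino embryos all 3 were above 0, at 0.65, 0.69 and 1.07. All 3 were lower at 44 h: in uninjected embryos of the Nanog experiment the log2 changes from 20 h to 44 h were -1.59, -1.87 and -2.92. For Omt2a and Omt2b the probe set they share read 6607, 6057 and 5074 in Sall4 morpholino embryos, against 3679, 3342 and 3380.5 in control morpholino embryos (log2 difference 0.76, adjusted p = 0.00106 among all probe sets). It was above every control array, as each gene's own probe set was.

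Genes that act on or with the members were read from 3 lists drawn up with earlier results of these data known. Of 9 transcription factors of the oocyte 8 are on the array and were tested, and between 20 h and 44 h in uninjected embryos of the Nanog experiment 2 passed, both as lower (16.4% of all genes), with a median of -0.76 beside 0.02. These were Lhx8, a LIM homeobox factor needed for oocyte survival (-1.94, adjusted p = 0.00513), and Foxo3, which restrains the activation of primordial follicles (-0.78, adjusted p = 0.00132). In uninjected embryos at 44 h against 20 h of the Oct4 experiment 5 of the 8 passed, all as lower (23.3% of all genes), among them Lhx8 (-5.15, adjusted p = 2.17e-09) and Nobox (-3.17, adjusted p = 0.000242). Figla averaged 227 ± 15.7 in uninjected embryos of the Nanog experiment at 44 h and 404 ± 137 at 20 h, and did not pass.

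A list of 25 genes for receptors, effectors and processing of GDF9 and BMP15 also holds Bmp4, Bmp6, Gdf3 and Fst, and 23 were tested. In uninjected embryos of the Nanog experiment 1 rose and 7 fell at 44 h, where 9.46% of all genes rose and 16.4% fell. The list median was -0.09 beside 0.02. Id3, a target of BMP signalling, rose by 3.79 on the log2 scale (adjusted p = 8.7e-08). Bmp6, another oocyte growth factor of the family, changed by -3.90 (adjusted p = 1.49e-07), and Smad3, which carries TGF-beta signals, by -3.31 (adjusted p = 2.6e-05). Id2, another target of BMP signalling, changed by -2.89 (adjusted p = 0.0173). Among 12 partners of the egg coat and other zona domain proteins 9 were tested, of which 1 rose and 2 fell, shares near those of all genes, with a median of 0.04 beside 0.02: Cd9, a tetraspanin of the egg membrane needed for fusion with sperm, by 2.16 (adjusted p = 9.27e-06), Tgfbr3, a co-receptor with a zona domain, by -3.38 (adjusted p = 1.2e-06), and Astl, the protease that cleaves ZP2, by -1.04 (adjusted p = 0.0408).

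At 44 h, in Nanog morpholino against control morpholino embryos, where 3.51% of all genes passed as higher and 1.52% as lower, 1 of the 8 oocyte transcription factors was higher, Lhx2 (4.19, adjusted p = 0.00604), and 1 of the 23 signalling genes, Id2 (4.78, adjusted p = 0.00149). Of the 9 egg coat partners Cd81 was higher (2.66, adjusted p = 0.013) and Cd9 lower (-1.19, adjusted p = 0.0319). In Sall4 morpholino against control morpholino embryos 1 of the 23 signalling genes passed as lower (2.12% of all genes), Pcsk6, a proprotein convertase (-1.12, adjusted p = 0.0456). In Oct4 morpholino against control morpholino embryos, where 5.26% of all genes passed as higher and 6.23% as lower, 4 of the 23 signalling genes and 3 of the 9 egg coat partners passed. Id1 (1.89, adjusted p = 3.81e-07) and Bmp4 (1.50, adjusted p = 0.00736) were higher and Smad2 (-1.17, adjusted p = 0.0162) and Pcsk6 (-0.98, adjusted p = 0.0444) lower. Of the egg coat partners Cd81 (2.26, adjusted p = 0.02) and Eng, a co-receptor with a zona domain (1.08, adjusted p = 0.00433), were higher there and Cd9 was lower (-1.15, adjusted p = 0.0201).

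Patterns over all 14 group means were compared by Pearson's r over log2 values, after each array set was centred on its own mean. The gene most like Omt2a was its neighbour Omt2b (r = 0.992), and Omt2b was most like Rock1 (0.994) and then Omt2a. A further probe set is annotated to both Omt2 genes, and whether each gene's own probe set also reads the other gene was not tested. Bmp15 was most like Stt3b (0.997), Gdf9 like Togaram1 (0.985), Oosp1 like Ccdc115 (0.987) and Zp2 like Shroom2 (0.991). Oosp2 was most like Bfsp1 (0.976) and Zp1 like Sertad2 (0.929). Zp3 had the least similar partner, Csnk1g2 (0.869), and its closest member was Oosp2 (0.657). Among the members Gdf9 was closest to Bmp15 (0.966) and Oosp1 to Omt2a (0.962), not to its neighbour Oosp2. These coefficients describe 14 group means that share the 2 times, and carry no test.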

How the data were processed

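Mouse embryo RNA was amplified and hybridised to expression arrays by the authors, per the labels' protocols. The deposited table holds 1 linear intensity per probe set and array. The software and normalization behind the deposited values are not given in the sources used here. Gene symbols came from GEO's annotation of the probe sets, of which 34945 have 1 symbol, 932 several and 9211 none.

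Where a gene had several probe sets, the one of highest mean intensity was taken. Values became log2(intensity + 16), and a gene was tested if a group mean on that scale exceeded the table median of 71.15 in at least 1 group, which left 15502 of 18193 genes. All 42 arrays entered 1 limma fit (limma 3.58.1, statmod 1.5.0, R 4.3.3; 28 residual degrees of freedom), two-sided, with Benjamini-Hochberg adjustment across all genes tested and a threshold of 0.05; the pooled fit shares 1 estimate of spread. The fit was tested on simulated data. Exact permutation of 3 against 3 arrays cannot go below p = 0.1, so none is given. The number of arrays limits the precision.

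The highest correlation of any 2 arrays was 0.964, so no 2 arrays held the same values. Deviations of same-numbered arrays of different groups had r from -0.047 to 0.138. It was over 0.1 in 7 of 45 pairs of the Nanog experiment and in 0 elsewhere. The mean r was 0.044 in the Nanog experiment, against -0.022 for arrays of different numbers. At 20 h it was 0.040 against -0.020 in the Oct4 and 0.018 against -0.009 in the Sall4 experiment. At 44 h of those experiments it was 0.0006 against -0.0003. Deviations within a group sum to 0, so the mean r for different numbers follows closely from that for the same number. The mean for different numbers is therefore no separate reference. Whether numbers pair samples was not tested, and the main fit did not pair them. Alternatives were 2 other pseudocounts, median centring, quantile normalization, other filters, the mean of all probe sets, every probe set as a feature, array weights, a replicate block, the compared groups alone, uninjected embryos as the control and each array left out.

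The members, the lists and the tests were chosen with earlier results of these data known. Genes named are the 9 members, listed genes that passed, with targeted and marker genes, and for each member the genes whose 14 group means were most like its own; Figla was added after its values were seen. Figures were drawn with matplotlib 3.10.9 in Python 3.11.15.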

Additional observations from a re-analysis of the deposited data

Results flagged for a closer look

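The changes over time of 3 members differed between injected and uninjected embryos by a test of the difference itself, in 4 cases. Bmp15 fell less in Oct4 morpholino than in uninjected embryos, by 0.95 ± 0.23 on the log2 scale (SE, limma, adjusted p = 0.012), and less in Sall4 morpholino than in uninjected embryos, by 0.88 ± 0.23 (adjusted p = 0.0462). The Oct4 call of Bmp15 did not pass with the mean of its 3 probe sets (0.59, adjusted p = 0.35). From the arrays of the compared groups alone it did not pass either (adjusted p = 0.099). The Sall4 call of Bmp15 is weak: it passed in 4 of 12 other settings, with an adjusted p of up to 0.302. With 1 array left out it passed in 3 of 12 fits, with an adjusted p of up to 0.165. In Sall4 morpholino embryos Omt2a fell less by 1.68 ± 0.31 (adjusted p = 0.00607) and Omt2b by 1.30 ± 0.22 (adjusted p = 0.00283). Neither Omt2 call passed from the arrays of the compared groups alone (adjusted p = 0.122 and 0.199). The injected embryos and the uninjected embryos had 3 arrays each at both times, and the uninjected arrays of 44 h serve both tests. These experiments had no control morpholino group at 20 h. Injection itself and the morpholino's target therefore cannot be told apart in the 4 cases. The uninjected embryos of 44 h are labelled for the Oct4 and Sall4 experiments together and those of 20 h for 1 of them, and the labels do not say whether both times were run together. No group had the 4 arrays needed to look for single outlying arrays.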

How the results depend on the processing

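No member's call reversed its direction under any alternative. In several of them a reversal could not occur, because the difference itself stays that of the main fit. These are the other filters, the replicate block, the compared groups alone and every probe set as a feature. The third Bmp15 probe set, which averaged lower in Oct4 morpholino than in control morpholino embryos at 44 h, entered only through the mean of all probe sets. Over all alternatives, 1323 of 1475 values of the 80 member calls still passed, among them 431 of 504 with 1 array left out, 71 of 80 with the replicate block and 40 of 80 when the arrays of the compared groups alone were fitted. By limma that last fit gave 0 members for Oct4, Sall4 and Nanog morpholino against control morpholino and against uninjected embryos at 44 h, for Oct4 against Sall4 morpholino embryos, and for the changes over time of Oct4 (3 members at an unadjusted p under 0.05) and Sall4 morpholino embryos (5 members); it has fewer samples to estimate the spread. For Oct4 morpholino against control morpholino embryos, 1 member passed instead of 2 with a pseudocount of 1, median centring, the mean of all probe sets, the replicate block or every probe set as a feature. For Nanog morpholino against uninjected embryos at 44 h, 3 passed instead of 5 with a pseudocount of 1 or the replicate block. For the change over time of Oct4 morpholino embryos, 2 passed instead of 1 with a pseudocount of 64, quantile normalization, the stricter filter or array weights, and 0 with the mean of all probe sets (2 at an unadjusted p under 0.05). For Nanog morpholino embryos at 44 h against 20 h, 1 passed instead of 2 with quantile normalization. With the replicate block at 44 h, Omt2b did not pass in Oct4 morpholino against control morpholino (adjusted p = 0.0633) or Sall4 morpholino embryos (0.0626). Nor did Zp1 in Sall4 morpholino against control morpholino embryos (0.0627). Against uninjected embryos, Gdf9 (0.0556) and Oosp1 (0.0642) in Sall4 morpholino and Oosp1 (0.0884) and Omt2b (0.0751) in Nanog morpholino embryos did not pass. The cause was not tested in these cases. The Sall4 change over time of Bmp15 did not pass in 8 of 12 settings (adjusted p = 0.0759 with the replicate block), nor Omt2a in Nanog morpholino against control morpholino embryos in 6 of 13 (0.0922 with the replicate block). With uninjected embryos as the control, an alternative added after the data were seen, 0 members passed for the change over time of Nanog morpholino embryos (0.948% of all genes).

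With 1 array left out, the count of members was 2 to 5 for Nanog morpholino against control morpholino, 2 to 4 for Nanog morpholino against uninjected, 1 to 2 for Oct4 morpholino against control morpholino, 3 to 4 for Oct4 morpholino against uninjected, 3 to 4 for Sall4 morpholino against control morpholino, 3 to 6 for Sall4 morpholino against uninjected and 1 to 3 for Oct4 against Sall4 morpholino embryos, all at 44 h. For 44 h against 20 h it was 1 to 2 in Nanog, 7 to 8 in Oct4 and 6 to 7 in Sall4 morpholino embryos, 6 to 8 in control morpholino and 7 to 9 in uninjected embryos of the Nanog experiment, and 7 to 8 in both comparisons of the other uninjected embryos. For the changes over time it was 0 to 1 (Nanog), 1 to 2 (Oct4) and 2 to 3 (Sall4), and it was 0 in all 20 h comparisons and between both kinds of control. Dim values limit Oosp2 at 44 h most, where 12 of its values were below the array median.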
